A study of Rattus norvegicus with 4 samples.

Results

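The sugar-building genes described here are the glycosyltransferases and glycan sulfotransferases of the rat distal colon. They were chosen by name, as rows with a single gene symbol that begins with B3gnt, B3galt, B3galnt, B4galt, B4galnt, Galnt, Fut, St3gal, St6gal, St8sia, Gcnt, Mgat or Chst. The rule found 83 rows for 82 genes among 13215 named genes. B3gntl1 was the only gene with more than 1 row, and its row of highest mean was used. Surface colonocytes, the absorptive cells that line the lumen, came from 4 Wistar rats aged 12 weeks, each hybridized to its own Affymetrix exon array. All 4 had both adrenal glands removed 4 days earlier and were given 0.9% NaCl to drink. Aldosterone was given to 2 of the rats for 2 h, as an injection of 50 µg per 100 g body weight plus a subcutaneous minipump delivering 10 µg per kg and hour, and 100 nM aldosterone was in the solution during 40 min of shaking that freed the cells. The other 2 rats received vehicle by the same routes, with polyethylene glycol in the pump. Values are log2 levels as deposited, and a difference is aldosterone minus vehicle.

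Glycosyltransferases sit mostly in the Golgi apparatus and add 1 sugar at a time from an activated donor to a protein, a lipid or a growing glycan. Galnt enzymes start mucin-type O-glycans, Gcnt and B3gnt enzymes branch and lengthen chains, and Mgat enzymes set the antennae of N-glycans. B3galt and B4galt enzymes add galactose, and Fut, sialyltransferase and Chst enzymes place fucose, sialic acid and sulfate, often at chain ends. In the colon these chains form the bulk of secreted mucus and of the glycocalyx on the brush border, and they serve as food and as docking sites for microbes.

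Cell type markers were sorted by a mean level of 4, which does not call a gene present or absent. All 12 measured surface colonocyte markers had a mean above 4, where 24.8% of all rows did. It was 0 of 7 for dividing crypt cells, 0 of 3 for tuft cells, 0 of 6 for lymphocytes and 0 of 5 for stroma, muscle and endothelium. These 5 lists were measured only in part, with 15, 9, 5, 10 and 11 markers listed in this order. Of the macrophage and granulocyte markers 1 of 8 lay above the mark of 4 (Cd14, mean 11.12), and of the enteroendocrine markers 1 of 7 (Insm1, mean 4.21). The aldosterone mean was higher for 10 of the 12 surface markers, and their summed log2 level was 105.8 and 111.8 in vehicle rats and 117.1 and 112.0 in aldosterone rats. Slc9a3 lay at 2.48 and 3.99 in vehicle rats and at 8.39 and 3.44 in aldosterone rats. Its mean of 4.57 passed the mark only through aldosterone rat 1, and that value also raised the sum of this rat. The part of these marker differences in the enzyme levels was not tested. For goblet cells, which make much of the secreted mucin, 7 of 11 listed markers were measured and 6 of them lay above 4. Muc2, Fcgbp, Clca1 and Spdef were not among the measured ones. Aldosterone rat 2 held the highest value of 4 of these 6 markers and the lowest of Clca4. The summed log2 level of the goblet list was 52.0 and 53.1 in vehicle rats and 52.6 and 58.1 in aldosterone rats. Zg16 had the widest range of this list, at 5.14 and 4.45 in vehicle rats and 6.39 and 8.06 in aldosterone rats. Its value raised the sum of aldosterone rat 2. Array medians over all rows ran from 2.22 to 2.44. In such mixed material, fewer cells of a type and less RNA per cell cannot be told apart.

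Of the 82 genes, 30 had a mean above 4 over the 4 arrays (36.6%, where 24.8% of all 19403 rows did), and 52 lay at 4 or less. No detection calls were used, so that the mark of 4 sorts rows by level alone. Rows below it need not lie near the floor of the arrays. Levels of different genes rest on different probes and are not set against each other. Fut4, at 4.56, was the member just above the mark, and B4galt7, at 3.90, the one just below it. The families differed in how many of the genes found by the rule passed. Only 13327 of the 19403 rows carried a single gene symbol. Family genes without such a row are not counted, so the counts below do not describe whole families. Above the mark were 2 of 2 Gcnt, 3 of 5 B4galt, 4 of 7 Fut, 3 of 6 B3gnt, 3 of 6 St3gal, 8 of 17 Galnt, 4 of 10 Mgat, 2 of 5 B3galt and 1 of 13 Chst genes. None of the 2 St6gal, 2 St6galnac, 5 St8sia, 1 B3galnt and 1 B4galnt genes did.

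**Figure D1:**
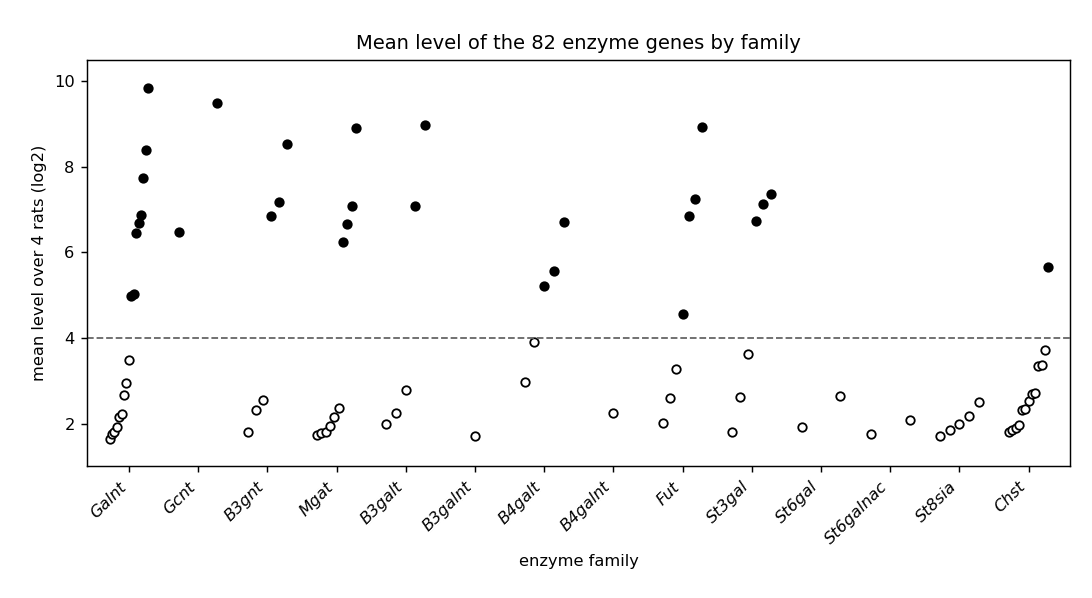
Mean log2 level over the 4 rats (vertical axis) of each of the 82 genes, by enzyme family (horizontal axis). Filled points lie above the mark of 4 (dashed line) and open points at or below it. All St6gal, St6galnac and St8sia genes are open, while both Gcnt genes are filled.

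Among the 52 low genes were Galnt2, Galnt9, Galnt11, Galnt13, Galnt14, Galnt16, Galnt17, Galntl5 and Galntl6, together with B3gnt4, B3gnt9 and B3gntl1. They also held Mgat3, Mgat4c, Mgat4d, Mgat4e, Mgat4e-like and Mgat5b, and B3galt1, B3galt4, B3galt6, B3galnt1, B4galt1, B4galt7 and B4galnt1. The low fucosyltransferase genes were Fut7, Fut9 and Fut11. Low sialyltransferase genes were St3gal1, St3gal5, St3gal6, St6gal1, St6gal2, St6galnac2, St6galnac3, St8sia1, St8sia2, St8sia3, St8sia5 and St8sia6. In the sulfotransferase family the low genes were Chst1, Chst3, Chst5, Chst7, Chst8, Chst9, Chst10, Chst11, Chst12, Chst13, Chst14 and Chst15. Among the 82 genes, the sialyltransferases above the mark were thus St3gal2, St3gal3 and St3gal4, which attach sialic acid to galactose, and the 1 sulfotransferase above it was Chst4. Sulfotransferase genes outside the name rule are described with sulfate supply.

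None of the 82 genes passed an adjusted p of 0.05 in limma, the lowest adjusted p being 0.422. Over all rows 0 of 19403 passed (0%). With a prior spread that followed the expression level, 0.108% of all rows passed and again 0 of the 82 genes, with a lowest adjusted p of 0.120. At an unadjusted p under 0.05, limma gave 4 of the 30 genes above the mark, 2 higher and 2 lower, which is 13.3%, against 10.9% of all 4815 rows above it. Both aldosterone values lay above both vehicle values in 3 of the 30 (10.0%, against 13.4% of rows) and below them in 5 (16.7%, against 18.7%). These shares of genes whose groups do not overlap lie near the background. With a fold of 1.5 or more in addition, 2 genes remained in the higher direction, Fut4 and St3gal3 (6.67%, background 3.93%). Also 2 remained in the lower direction, B4galt6 and Fut2 (6.67%, background 5.65%). The median difference of the 30 genes was -0.07, against -0.04 over all rows above the mark, with 12 genes higher and 18 lower.

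**Figure D2:**
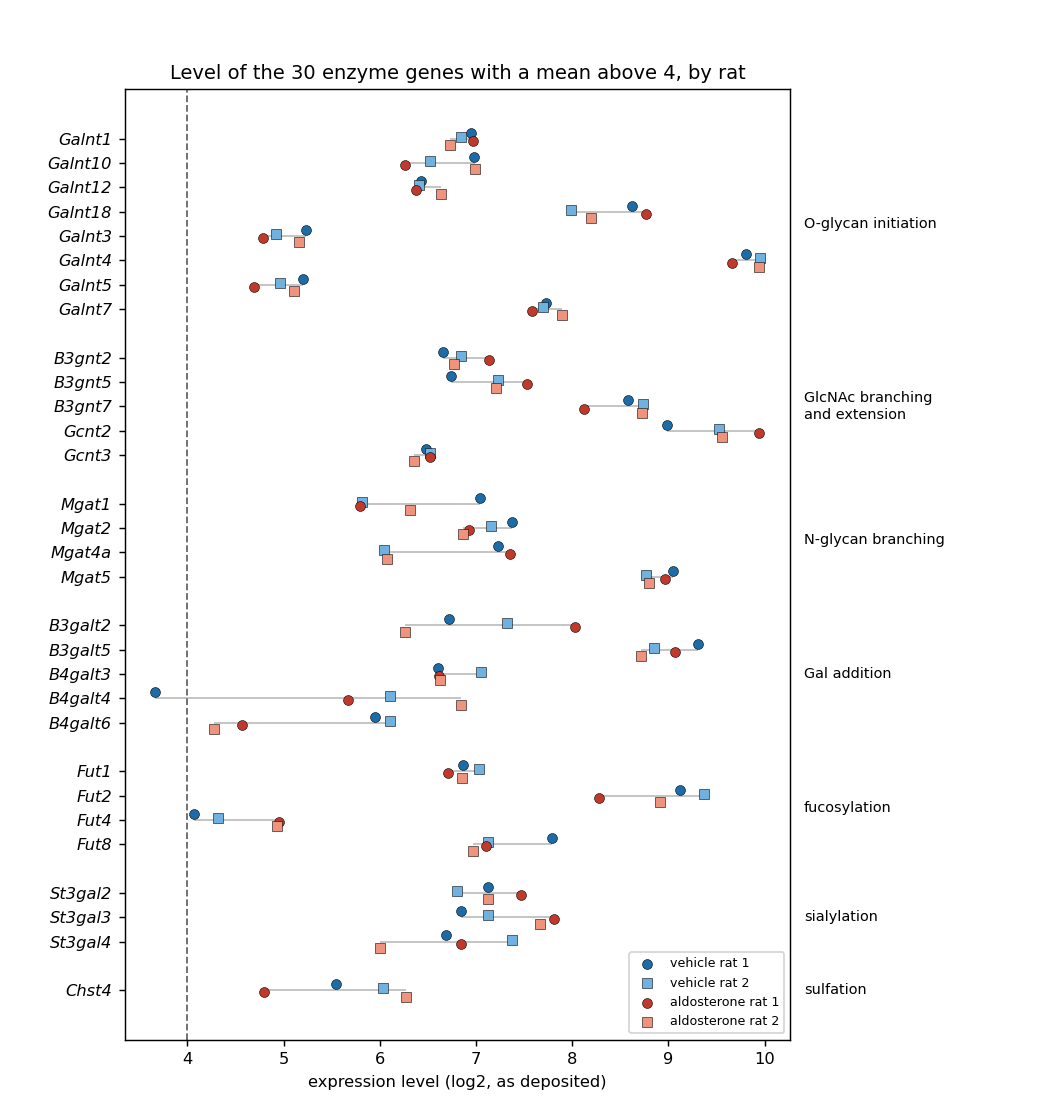
Log2 level (horizontal axis) of the 30 genes above the mark in each rat, grouped by enzyme role. Blue symbols are vehicle rats and red symbols aldosterone rats, shifted slightly in height for sight, and the grey line spans the 4 values. B4galt6 shows both red symbols left of both blue ones, and B4galt4 shows vehicle rat 1 at 3.66, far from its other values.

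The 4 genes above the mark whose groups did not overlap at a fold of 1.5 or more were B4galt6, Fut2, Fut4 and St3gal3. The promoters of Fut4, St3gal3 and Fut2, the 3 of them with an entry in the promoter table, are shown. Each sequence is the RefSeq GRCr8 window from 250 bases before to 50 bases after the gene start, written in the direction of the gene. Corticosteroid receptors bind a pair of 6-base words, AGAACA and TGTTCT, spaced by 3 bases. Capitals mark either word, each being the reverse complement of the other, so that both strands were searched. Fut4 lies at chr8:19872090-19872389 (minus strand), St3gal3 at chr5:136955670-136955969 (minus strand) and Fut2 at chr1:105275978-105276277 (minus strand).
Fut4: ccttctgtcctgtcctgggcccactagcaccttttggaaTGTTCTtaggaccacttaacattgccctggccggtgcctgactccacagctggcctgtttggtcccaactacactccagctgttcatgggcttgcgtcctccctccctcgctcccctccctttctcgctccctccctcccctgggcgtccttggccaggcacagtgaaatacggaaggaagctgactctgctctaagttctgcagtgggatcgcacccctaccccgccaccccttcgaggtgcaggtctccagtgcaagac
St3gal3: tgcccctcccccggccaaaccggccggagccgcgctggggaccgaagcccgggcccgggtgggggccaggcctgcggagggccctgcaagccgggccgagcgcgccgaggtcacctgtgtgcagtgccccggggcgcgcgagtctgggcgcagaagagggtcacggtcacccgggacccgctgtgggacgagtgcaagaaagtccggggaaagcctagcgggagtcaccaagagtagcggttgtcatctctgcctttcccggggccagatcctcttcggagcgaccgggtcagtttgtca
Fut2: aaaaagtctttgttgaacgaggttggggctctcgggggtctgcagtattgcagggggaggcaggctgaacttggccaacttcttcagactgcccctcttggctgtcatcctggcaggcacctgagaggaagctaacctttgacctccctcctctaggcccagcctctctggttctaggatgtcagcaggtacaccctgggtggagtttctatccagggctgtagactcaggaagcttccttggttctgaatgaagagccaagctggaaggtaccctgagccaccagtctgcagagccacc

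The Fut4 window held TGTTCT, which began 211 bases before the gene start, and the other 2 windows held none. Over the 67 members with an entry, 10 promoters (14.9%) held either word, against 20.7% of all 33469 promoters of the same length. Among the 26 members above the mark with an entry it was 4 (15.4%), namely B3galt2, B3gnt5, Fut4 and Gcnt3. The spaced pair occurred in 0 of the 67 and in 5 of all promoters (0.0149%). Promoters of the members had a median GC content of 61.3%, against 51.7% over all promoters. These matches describe letters in the window and nothing about binding.

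Among the enzymes that begin mucin-type O-glycans, no gene above the mark separated the groups. Galnt4 lay at 9.81 and 9.95 in vehicle rats and at 9.66 and 9.94 in aldosterone rats. Galnt7, whose enzyme acts on peptides that already carry N-acetylgalactosamine, lay at 7.73 and 7.70 against 7.59 and 7.90. The groups overlapped for both genes. Galnt1, one of the broadly expressed initiating enzymes, lay at 6.95 and 6.85 against 6.97 and 6.73. Galnt12, which is known from the digestive tract, lay at 6.43 and 6.40 against 6.38 and 6.64. The interval of the difference ran from -0.49 to 0.32 for Galnt4, -0.37 to 0.42 for Galnt7, -0.42 to 0.31 for Galnt1 and -0.27 to 0.45 for Galnt12. Galnt18 had the widest gap between group means in the family, at 8.62 and 7.98 against 8.77 and 8.20, a difference of 0.18. The sign turned to -0.14 when vehicle replicate 2 was left out, and to -0.11 when aldosterone replicate 1 was. Galnt3 (5.23 and 4.92 against 4.79 and 5.16), Galnt5 (5.21 and 4.96 against 4.70 and 5.11) and Galnt10 (6.98 and 6.52 against 6.26 and 6.99) overlapped too. The family median was -0.07, with 3 genes higher and 5 lower, but Galnt1 turned higher after quantile normalization and Galnt7 lower after centring each array on its median.

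Aldosterone rat 1 held the lowest value of 6 of these 8 Galnt genes, Galnt3, Galnt4, Galnt5, Galnt7, Galnt10 and Galnt12. Over all 30 genes it held the lowest value in 11 (36.7%, against 24.9% of all rows above the mark) and also the highest value in 10 (33.3%, against 23.0%). Besides the Galnt genes it was lowest for B3gnt7, Mgat1, Fut1, Fut2 and Chst4. Among goblet markers above the mark, it was lowest for Tff3, the mucus trefoil peptide gene (11.12 and 10.74 in vehicle rats, 9.44 and 11.30 in aldosterone rats), and for Agr2, a disulfide isomerase gene of mucin folding (7.89 and 7.91, 7.69 and 8.52). It was not the lowest for Atoh1, Clca4, Retnlb or Zg16. Zg16, a lectin gene of goblet cells, was the 1 goblet marker above the mark whose groups did not overlap, at 5.14 and 4.45 in vehicle rats and 6.39 and 8.06 in aldosterone rats. The part of goblet cell RNA in the levels of the enzymes was not tested.

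**Figure D3:**
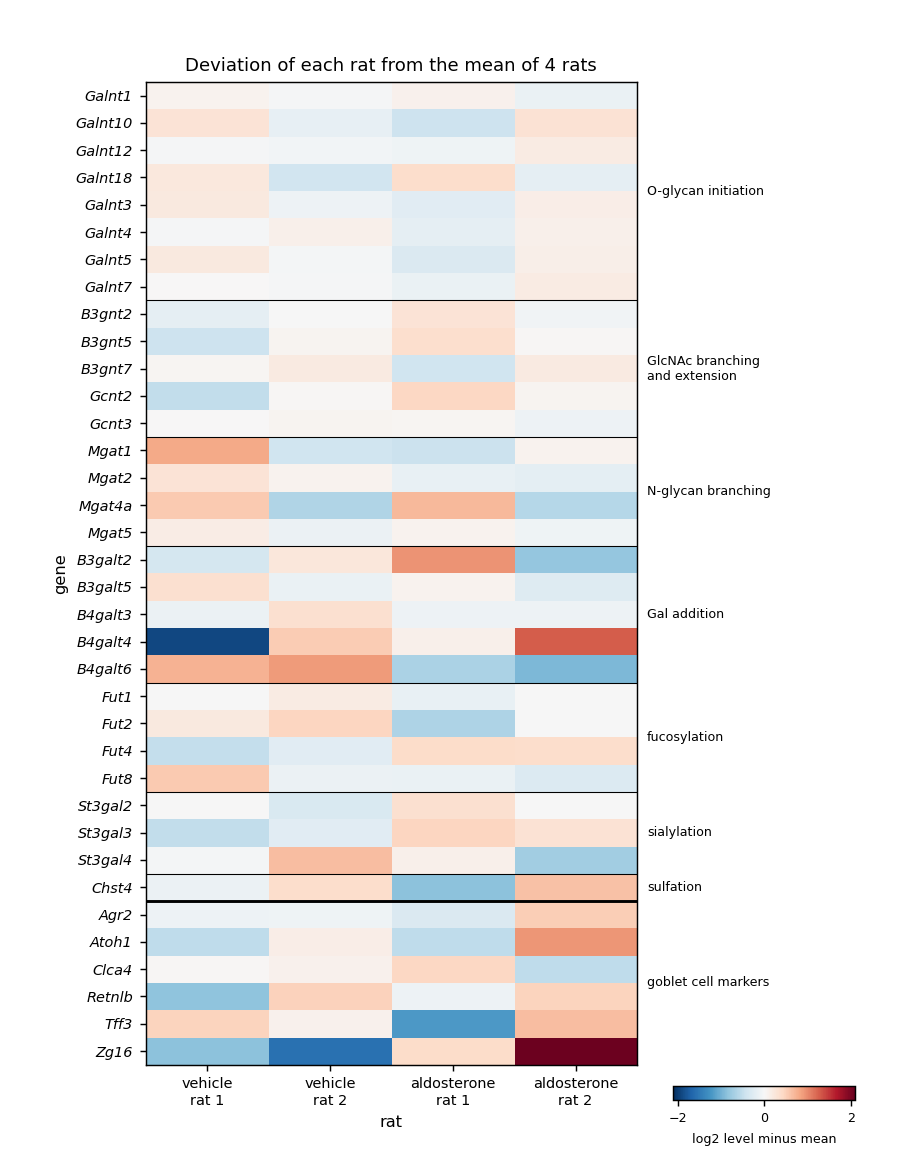
Log2 level of each rat minus the mean of the 4 rats (colour, red above and blue below the mean) for the 30 genes, grouped by role, and for the 6 goblet cell markers with a mean above 4 (below the thick line). The aldosterone rat 1 column is the lowest of the row for 6 of 8 O-glycan initiation genes, and B4galt6 is above its mean in both vehicle rats and below it in both aldosterone rats.

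Of 5 genes for branching and chain extension with N-acetylglucosamine above the mark, 3 had a higher mean in aldosterone rats, where 44.5% of all rows above the mark did, and the groups overlapped in 4. Gcnt2, the enzyme that makes the branched I form of poly-N-acetyllactosamine, lay at 8.98 and 9.53 in vehicle rats and at 9.94 and 9.56 in aldosterone rats. Both aldosterone values exceeded both vehicle values, the nearer pair by little. The difference was 0.49 (1.41-fold, interval -0.20 to 1.18). It was 0.22 without vehicle replicate 1 and 0.77 without vehicle replicate 2. B3gnt5, which begins lacto-series glycolipids, lay at 6.74 and 7.23 against 7.53 and 7.21 (difference 0.38, interval -0.24 to 1.01). B3gnt2, the main enzyme of poly-N-acetyllactosamine chains, lay at 6.66 and 6.84 against 7.14 and 6.77. B3gnt7, which extends such chains on sulfated acceptors, lay at 8.58 and 8.73 against 8.12 and 8.72. Gcnt3, the mucin-type branching enzyme of the gut, varied least of the 30, at 6.48 and 6.52 against 6.52 and 6.36, and its small negative difference changed sign after quantile normalization.

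Among the N-glycan antenna genes, Mgat1 and Mgat4a differed widely between rats of 1 group, and Mgat2 and Mgat5 did so less. Mgat1, which opens the way to complex N-glycans, lay at 7.04 and 5.82 in vehicle rats and at 5.79 and 6.31 in aldosterone rats. Vehicle rat 1 stood apart, and the difference of -0.38 became 0.24 without vehicle replicate 1. Mgat4a, which adds a further antenna, lay at 7.23 and 6.04 against 7.36 and 6.07, so that the rats numbered 1 were high and the rats numbered 2 low in both groups. Its difference of 0.08 had an interval from -1.61 to 1.77. Mgat2, which acts after Mgat1, lay at 7.37 and 7.15 against 6.93 and 6.87. Its groups did not overlap, and the difference was -0.36 (1.28-fold lower, interval -0.70 to -0.02, adjusted p = 1.00 in limma). Mgat5, which makes the branch that galectins favour, lay at 9.05 and 8.77 against 8.97 and 8.80 (interval -0.43 to 0.39).

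Of all members, B4galt6 had the lowest p between the groups. This gene encodes a lactosylceramide synthase, which adds galactose to glucosylceramide and so opens the path to gangliosides and other glycosphingolipids. B4galt5, of the same family, was not among the genes found by the rule. The level of B4galt6 alone does not stand for this step. Row 7173625 of B4galt6 stood at 5.95 and 6.11 in vehicle rats and at 4.57 and 4.28 in aldosterone rats. Both aldosterone rats thus lay below both vehicle rats. The difference was -1.61 (3.05-fold lower, interval -2.02 to -1.20, adjusted p = 0.422 in limma). With any 1 array left out it ran from -1.75 to -1.46, and over all alternatives the adjusted p ran from 0.113 to 1.00. B4galt4, a galactosyltransferase with a taste for sulfated N-acetylglucosamine, lay at 3.66 and 6.11 against 5.67 and 6.85. Vehicle rat 1 stood far below the others, and the difference of 1.38 (interval -1.24 to 3.99) was 0.15 without vehicle replicate 1 and 2.60 without vehicle replicate 2. B4galt3 lay at 6.60 and 7.05 against 6.61 and 6.62. B3galt5, which builds type 1 chains of the gut, lay at 9.31 and 8.85 against 9.07 and 8.71, and its difference of -0.19 became 0.04 without vehicle replicate 1. B3galt2 lay at 6.72 and 7.32 against 8.03 and 6.26, the aldosterone rats enclosing the vehicle rats.

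Other genes of the glycosphingolipid route are given beside B4galt6, with no test between them. Ugcg, which makes glucosylceramide, the substrate of B4galt6, lay at 8.56 and 8.54 in vehicle rats and at 8.74 and 9.03 in aldosterone rats (difference 0.33, interval -0.05 to 0.71, adjusted p = 1.00). St3gal5, the GM3 ganglioside synthase, lay below the mark at 2.56 and 3.17 against 2.21 and 2.56. B4galnt1, which leads to complex gangliosides, lay near the floor at 2.18 and 2.47 against 2.14 and 2.22. St8sia1, which makes GD3 from GM3, lay near the floor too, at 2.00 and 2.095 against 1.98 and 1.91. All 3 of these low genes had a lower mean in aldosterone rats, by 0.48 or less on the log2 scale, and were named after their values were seen. These low genes and B4galt6 do not stand for the whole route. St3gal2 and B3gnt5, which also act on glycolipids and lay above the mark, had a higher mean in aldosterone rats, by 0.33 and 0.38, with overlapping groups.

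**Figure D4:**
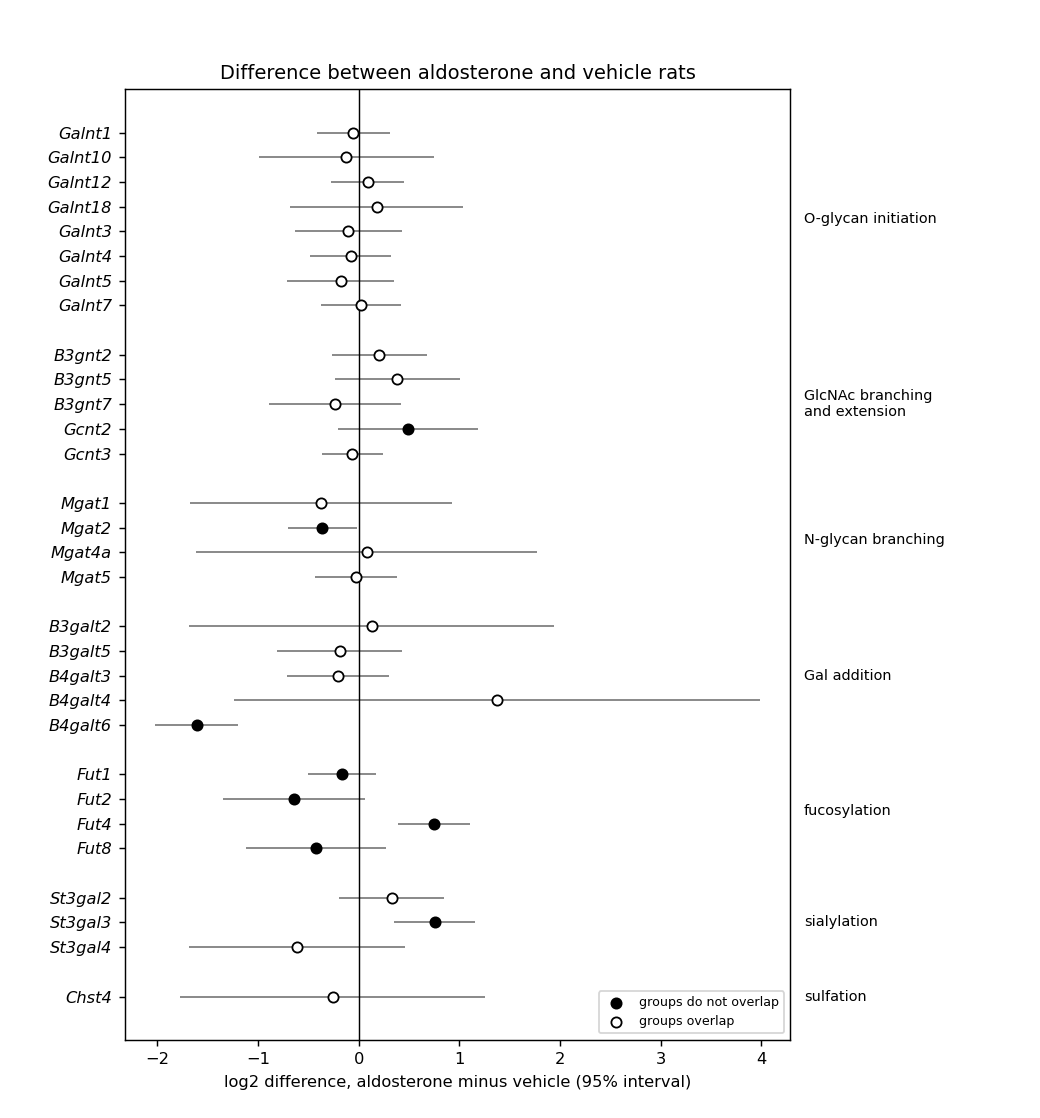
Log2 difference between group means, aldosterone minus vehicle (horizontal axis), with its 95% interval from limma (bars, n = 2 rats per group) for the 30 genes above the mark, grouped by role. Filled points are genes whose groups do not overlap. B4galt6 lies farthest left at -1.61, and the interval of B4galt4 runs from -1.24 to 3.99.

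All 4 fucosyltransferase genes above the mark had groups that did not overlap, 3 lower and 1 higher in aldosterone rats, where 18.7% and 13.4% of all rows above the mark did so. The nearest values of the groups lay close together for Fut1 and Fut8. Fut2, the secretor enzyme that makes the H antigen of mucus and epithelium, lay at 9.12 and 9.37 in vehicle rats and at 8.28 and 8.92 in aldosterone rats. The difference was -0.65 (1.57-fold lower, interval -1.35 to 0.06). It was -0.33 without aldosterone replicate 1 and -0.96 without aldosterone replicate 2. Fut1, the H enzyme of other cell types, lay at 6.86 and 7.03 against 6.70 and 6.85, a gap of little size (difference -0.17). Fut8, which adds core fucose to N-glycans, lay at 7.79 and 7.13 against 7.11 and 6.97. Its difference of -0.42 (interval -1.12 to 0.28) was -0.09 without vehicle replicate 1. Fut4, an enzyme of Lewis x, lay at 4.07 and 4.32 in vehicle rats and at 4.95 and 4.93 in aldosterone rats. The aldosterone rats were alike and both above the vehicle rats, by 0.75 (1.68-fold, interval 0.39 to 1.10, adjusted p = 0.728 in limma, 0.578 to 1.00 over the alternatives). None of these 4 signs changed with quantile normalization or with arrays centred on their medians.

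The sialyltransferase genes above the mark differed in direction. St3gal3, which caps N-acetyllactosamine and type 1 chains, lay at 6.84 and 7.12 in vehicle rats and at 7.81 and 7.66 in aldosterone rats. Both aldosterone values were higher, by 0.75 on average (1.69-fold, interval 0.35 to 1.15, adjusted p = 0.798 in limma, 0.637 to 1.00 over the alternatives). St3gal2, which caps O-glycans and gangliosides, lay at 7.12 and 6.81 against 7.46 and 7.12, and its groups overlapped. St3gal4, which caps N-acetyllactosamine, lay at 6.69 and 7.38 against 6.84 and 6.002. Its difference of -0.61 had an interval from -1.69 to 0.46 and was -1.03 without aldosterone replicate 1 and -0.19 without aldosterone replicate 2. Among the low sialyltransferase genes, St6gal1 stood at 3.69 in vehicle rat 1 and between 2.19 and 2.46 in the other rats.

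Chst4, a sulfotransferase of N-acetylglucosamine in mucin-like ligands, lay at 5.54 and 6.03 in vehicle rats and at 4.79 and 6.27 in aldosterone rats. The aldosterone rats enclosed the vehicle rats, and the difference of -0.26 became 0.48 without aldosterone replicate 1. Below the mark, 0 of 52 genes separated the groups with a fold of 1.5 or more, where 1.21% of all rows at 4 or less did. Their differences ran from -0.61 for St6gal1 to 0.44 for B3gnt9. Chst5, another sulfotransferase of N-acetylglucosamine and a gene named after its values were seen, lay at 3.12 and 3.18 against 3.52 and 3.63.

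The spread between rats of 1 group was as wide as the gap between groups for most members. The gap between the 2 rats of at least 1 group exceeded the absolute difference of the group means in 25 of the 30 genes (83.3%, against 79.8% of all rows above the mark). The exceptions were B4galt6, Fut4, St3gal3, Fut2 and Mgat2. The median gap was 0.30 between vehicle rats and 0.35 between aldosterone rats, against 0.31 and 0.29 over all rows above the mark. With each array left out in turn, 13 of the 30 genes kept the sign of their difference each time, and 17 changed it at least once. The range over the 4 rats exceeded 1 in 8 of the 30 (26.7%, against 19.7% of rows) and was under 0.5 in 10, among them Gcnt3, Mgat5, Fut1 and 5 Galnt genes.

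Genes that supply these enzymes with donors, precede them in a pathway or bind their products were measured beside them. Of 89 such genes, 50 lay above the mark and 0 passed an adjusted p of 0.05 in limma, and 0 with a prior that followed level. Among the 50, the groups did not overlap in 7 with aldosterone higher and 8 with aldosterone lower, and an unadjusted p under 0.05 was found for 5 higher and 1 lower. These are 14% and 16% for the groups, against 13.4% and 18.7% of all rows above the mark, and 12.0% for the p, against 10.9%, all near the background. Their median difference was -0.09, and 0.012 without aldosterone replicate 1. Of the 50 genes, 18 were higher and 32 lower, where 44.5% of all rows above the mark were higher. Vehicle rat 1 held the highest value in 23 of the 50 genes and in 41.1% of all rows above the mark.

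Sulfate supply and use held 6 genes above the mark, 4 of them higher and 2 lower (median 0.28, and 0.014 without aldosterone replicate 2). Slc26a2, the sulfate transporter, lay at 8.09 and 8.28 in vehicle rats and at 9.11 and 8.70 in aldosterone rats (1.65-fold, interval 0.22 to 1.23, adjusted p = 0.891). Ndst1, which starts the sulfation of heparan sulfate, lay at 7.53 and 7.28 against 8.34 and 8.20 (1.82-fold, interval 0.49 to 1.24, adjusted p = 0.711). Both genes had groups clear of each other, while Papss2, which makes the sulfate donor, lay at 4.93 and 4.51 against 4.69 and 5.04. Hs3st1 and Hs2st1, which sulfate heparan sulfate, and Tpst2, which sulfates protein tyrosines, also overlapped.

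Supply of hexosamines, galactose and nucleotide sugars held 8 genes above the mark, 1 higher and 7 lower (median -0.28). Vehicle rat 1 was the highest in 6 of the 8, and without vehicle replicate 1 the median was -0.08, with 2 higher and 6 lower. Pgm3, a step on the way to UDP-N-acetylglucosamine, lay at 6.33 and 5.74 in vehicle rats and at 5.31 and 5.34 in aldosterone rats (1.64-fold lower, interval -1.34 to -0.09, adjusted p = 1.00). Uap1, the step after it, lay at 8.36 and 8.24 against 8.22 and 7.87. Gfpt1, the entry enzyme of the route, lay at 10.47 and 10.16 against 10.56 and 10.21 and overlapped. Sialic acid supply, with Gne at 9.20 and 8.92 against 9.12 and 9.11 and Cmas at 8.71 and 8.45 against 8.54 and 8.76, overlapped in both of its genes above the mark. Gmds, the 1 gene of fucose supply above it, lay at 7.23 and 6.79 against 6.19 and 6.90.

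Other transferases of chain cores and ends held 4 genes above the mark, 3 higher and 1 lower. Abo3, of the ABO blood group family, whose close copies in the rat may share signal, lay at 10.55 and 10.98 in vehicle rats and at 11.50 and 11.44 in aldosterone rats (1.63-fold, interval 0.21 to 1.20, adjusted p = 0.891). ABO enzymes use the H antigen made by Fut2. The mean of Fut2 was lower in the same rats (interval -1.35 to 0.06), and a link between these genes was not tested. C1galt1, which forms the core of most O-glycans, lay at 7.99 and 7.51 against 8.01 and 7.80.

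Early N-glycan assembly and trimming held 10 genes above the mark, 3 higher and 7 lower (median -0.09, and 0.10 without aldosterone replicate 1). Of these, Dpagt1 (7.99 and 7.50 against 7.22 and 7.43), the first enzyme of the lipid-linked precursor, and Alg3 (6.21 and 6.27 against 5.66 and 6.18) did not overlap. Degradation held 9, 1 higher and 8 lower (median -0.13, and 0.079 without aldosterone replicate 1). Manba, the lysosomal beta-mannosidase, lay at 6.61 and 6.38 against 6.29 and 6.02, and Fuca1, an alpha-fucosidase, at 9.13 and 9.16 against 8.80 and 9.06. Over all rows above the mark, 18.7% lay lower without overlap and 44.5% had a higher mean. Among 6 acceptor glycoproteins, the membrane mucin Muc4 lay at 6.22 and 5.98 against 4.83 and 5.94, and Cdh17, a cadherin of gut epithelium, at 11.26 and 11.09 against 11.51 and 11.35. Muc13, the membrane mucin of the brush border, overlapped at 11.97 and 11.58 against 11.87 and 11.55. Muc1 had the widest difference of the 6, -1.16, but overlapped at 8.78 and 8.44 against 6.41 and 8.48. Aldosterone rat 1 held the lowest value of both Muc1 and Muc4.

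Among 4 lectin genes above the mark, Lgals3 and Lgals4, galectins of gut epithelium that bind galactose-containing chains, lay higher in both aldosterone rats. Lgals3 stood at 11.33 and 11.48 against 11.83 and 11.87 (1.36-fold, interval 0.14 to 0.75, adjusted p = 0.884). Lgals4 stood at 10.84 and 10.68 against 11.05 and 11.22 (1.30-fold, interval 0.03 to 0.72, adjusted p = 1.00). Lgals9 lay at 5.29 and 5.18 against 5.01 and 5.15.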

How the data were processed

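The deposited log2 values, 1 per transcript cluster and array, were used as the authors normalized them. Partek, RMA and Affymetrix Expression Console are named, per the submitters' processing notes, without versions or roles. Ribosomal RNA was reduced before labelling, per the labels' protocols. RMA makes arrays more alike in distribution, which compresses shifts shared by most genes. The deposited values were not fully alike, with array medians over all rows from 2.22 in vehicle rat 1 to 2.44 in aldosterone rat 2. The log2 scale was read from the range of the values, the genome build is not given in the sources used here, and having 4 arrays limits the precision.

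Gene names came from the platform annotation, and all 82 Entrez IDs matched RefSeq GRCr8. The comparison was fitted over all 19403 rows with limma 3.58.1 in R 4.3.3 (lmFit, eBayes, constant prior, treatment as the only term, two-sided), with Benjamini-Hochberg adjustment over all rows and 95% intervals of the moderated fit. The script was tested on simulated data, in 10 draws with 200 changed rows each and a spread that followed expression level. An adjusted p under 0.05 in limma was reached by 4.9% of the rows changed by 1 on the log2 scale. It was 37.8% for a change of 2 and 94.1% for a change of 4. A gene that did not pass is therefore not shown to be unchanged. An exact permutation test of 2 against 2 rats cannot go below p = 0.333 and was not used. Tables and plots used Python 3.11.15, pandas 2.3.3 and matplotlib 3.10.9.

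Named were all members above a mean of 4. Values by rat went to members that separated by 1.5-fold or had an unadjusted p under 0.05, to the member farthest from 0 in each family, and to further members for completeness. From the other lists came up to 3 genes each whose groups did not overlap, with further genes for context, and Chst5, B3gnt9, St3gal5, St6gal1, St8sia1 and B4galnt1 were picked from the low members after their values were seen. Members and lists were chosen with earlier results of these data known. Protein sequences were not used here.

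Alternatives were quantile normalization, centring, filters on low rows, an intensity trend, a robust prior, no moderation, the replicate number as a block, each array left out, averaged rows of a gene and other level marks.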

Additional observations from a re-analysis of the deposited data

How the results depend on the processing

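With 2 rats per group, intervals were wide and 0 of 82 genes passed an adjusted p of 0.05 under any alternative fit. Among the 30 genes above a mean of 4, the 2 lower genes at an unadjusted p under 0.05 became 1 with rows under the median or under 4 left out and without moderation. With the replicate number as a block the counts were 4 higher and 3 lower. Same-numbered rats deviated from their group means with a correlation of 0.0934 over 4815 rows above a mean of 4. The labels give only the number, and 2 rats per group cannot decide whether same-numbered rats shared more. Leaving out single arrays gave 2 to 4 higher and 2 to 4 lower. The median difference of the 30, -0.07, ran from -0.09 to 0.04 with single arrays left out, the positive value coming without vehicle replicate 1, when 56.7% of them were higher instead of 40.0%. It was -0.03 after quantile normalization and -0.13 after centring. With single arrays left out, the difference of B3galt5 ran from -0.42 to 0.043 and that of Mgat1 from -0.99 to 0.24, both turning positive without vehicle replicate 1. Galnt18 ran from -0.14 without vehicle replicate 2 to 0.50, and was -0.11 without aldosterone replicate 1. Chst4 ran from -0.99 to 0.48, the latter without aldosterone replicate 1. The cause was not tested. The other 149 values of the 11 genes chosen by the naming rule, over these alternatives, kept their sign and stayed above an adjusted p of 0.05. At an unadjusted p of 0.05 single genes crossed. Mgat2 went from 0.0426 to 0.252 with an intensity trend, and Fut2 from 0.0638 to 0.0190 with the replicate block, both in limma. The number of genes above the mark was 30 at 4 and was 37 at 3, 28 at 5 and 29 when all 4 arrays had to exceed 4. The median difference was -0.05, -0.07 and -0.08 under these marks, and -0.07 with the rows of a gene averaged. Leaving out arrays for the other pathway lists was chosen after seeing the data. With single arrays left out, their median ran from -0.27 to 0.048 for acceptor glycoproteins (positive without vehicle replicate 1) and from -0.072 to 0.19 for sialic acid supply (negative without vehicle replicate 2). It ran from -0.21 to 0.079 for degradation, from -0.28 to 0.10 for early N-glycan assembly and from -0.17 to 0.012 over all 50 genes, each positive without aldosterone replicate 1.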
